A study of Homo sapiens with 48 samples.

Results

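The genes described here are 45 factors that make ribosomes, chosen by name from a list of ribosome biogenesis and RNA polymerase I genes, out of 19102 genes in an expression table of A382 glioblastoma cells. All 45 were found in the table, and all 45 passed the filter on low values in every comparison, so none had to be left out. The list holds 2 nucleolar scaffold proteins, 3 proteins of box C/D ribonucleoproteins, 5 proteins linked to box H/ACA ribonucleoproteins, 8 RNA polymerase I subunits and cofactors, 15 factors of the small ribosomal subunit and 12 of the large one.

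Ribosomes are built in the nucleolus. RNA polymerase I transcribes the long precursor of ribosomal RNA, small nucleolar ribonucleoproteins (snoRNPs) of the box C/D and box H/ACA classes methylate it and convert uridines to pseudouridine, and large sets of assembly factors cut, fold and export the small and the large subunit. MYC is known to drive many of these genes, and p53 is known to respond to faults in the process through ribosomal proteins that bind MDM2. The TIP60/EP400 complex is a chromatin complex that acetylates histones and exchanges the histone variant H2A.Z. BRD8, EP400, TIP60 (gene KAT5), TRRAP, ACTL6A, MRGBP, ING3, DMAP1, GAS41 (gene YEATS4), MEAF6, VPS72, MORF4L1, MORF4L2, RUVBL1 and RUVBL2 are its subunits.

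A382 is an established glioblastoma cell line. In 44 libraries the cells were infected with a lentivirus carrying a guide RNA and harvested on day 9. The guides targeted 1 of those 15 subunits or H2A.Z (labelled H2AZ, gene H2AFZ in the table), or were 1 of the control guides sgNeg1, sgNeg2, sgNeg3 and sgNeg4, each with 2 libraries. BRD8 and H2AZ had 4 libraries each, 2 for each of 2 guides. The other targets had 2 libraries, 1 for each guide. In a further 4 libraries the cells expressed p53 from a doxycycline-inducible construct (labelled P53, 2 libraries) or the control vector (labelled PCW, 2 libraries), and both kinds were harvested on day 2 of doxycycline. By its title the study concerns how BRD8 acts on the p53 network in glioblastoma. The knockouts are infected cell populations, and the labels name no clones. Nothing in the labels tells whether libraries of 1 guide are separate cultures, and the spread that each p-value rests on may be technical.

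The values are FPKM, fragments per kilobase of transcript scaled to the size of the library, so a level per length. Empty columns split the table into 5 blocks, each with its own controls. The guide 2 columns of MEAF6 and VPS72 agree exactly in every one of the 19102 genes (14007 are above 0), and neither was used, so MEAF6 and VPS72 rest on 1 library each and 46 of 48 libraries entered the fits. Steps between low values showed that 1 FPKM stood for 4.2 to 21.4 fragments per kilobase, least in the block of H2AZ and sgNeg4 (4.2 to 7.3) and most in that of BRD8 and sgNeg1 (16.8 to 21.4). The targeted gene was lower in 15 of 16 knockouts and passed the test in 8, and MORF4L1 was at 0.039 ± 0.29 (log2) in its own knockout. Of the glioma markers VIM, CD44 and PDGFRA were above 5 FPKM in all control libraries, while the glial markers OLIG2, S100B, FABP7 and GFAP did not exceed 0.347 FPKM in any library. The block of BRD8 and sgNeg1 stood apart, with SOX2 at 0.233 and 0.181 FPKM in its controls against 39.7 and 39.7 FPKM with sgNeg3 and 14.3 and 14.9 FPKM with PCW, and MYC at 2.67 and 2.4 FPKM against 36.9 and 36.4 FPKM and 109 and 108 FPKM. Each BRD8 result rests on this block alone. Of 9 markers of other cell types, CD68 was the one at an appreciable level, and the other 8 together summed to between 0.086 and 1.369 FPKM.

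Short letter runs upstream of the members are shown first, because they are the one property of these genes that the expression values do not enter. Promoter windows of 250 bases before the RefSeq start (build GRCh38.p14) were at hand for 36 of the 45 members and were searched on both strands. The E-box letters CACGTG, the core that MYC and related factors bind, occurred in 5 of the 36 (13.9%), against 6.34% of all 35116 windows. The letters CCGGAAG, the core that ETS factors bind, occurred in 10 (27.8%), against 8.52% of all windows. The letters TCGCGA, here called the CGCG box, occurred in 5 (13.9%), against 2.64%. Each member has 1 window here, while the 35116 are more than the 19102 genes of the table, so the percentages have unlike units. A match is a description of the letters and not a binding site. Each line below gives 30 bases in the direction of the gene, with the match in capitals. The 9 sites belong to members described with their values further on, 3 for each letter run, and the letter runs do not overlap one another within a line.
EBNA1BP2, E-box (chr1:43172790-43172819, minus strand): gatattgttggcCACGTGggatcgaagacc
UTP18, E-box (chr17:51260445-51260474, plus strand): gggagtgctggtCACGTGgcaagaggctgc
UTP20, E-box (chr12:101280083-101280112, plus strand): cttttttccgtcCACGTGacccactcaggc
POLR1B, ETS core (chr2:112541899-112541928, plus strand): aggcctccagtCCGGAAGatgcgacgaggt
POLR1C, ETS core (chr6:43516866-43516895, plus strand): gatgtgggcctCCGGAAGgtagacgtccag
RRP9, ETS core (chr3:51942117-51942146, minus strand): acagcatcaggCCGGAAGcgccgtggagat
NPM1, CGCG box (chr5:171387791-171387820, plus strand): cttgggaagcgcTCGCGAgatcttcagggt
NCL, CGCG box (chr2:231464581-231464610, minus strand): acggttagaggcTCGCGAttggctcatggg
NOP14, CGCG box (chr4:2963433-2963462, minus strand): ggtgtttacttcTCGCGAgtcggaggtgct

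The members spanned a wide range of levels. In the 2 PCW libraries the nucleolar scaffold protein NCL (nucleolin) stood at 370.0 and 352 FPKM and NPM1 (nucleophosmin) at 249 and 234 FPKM. NOP10, a small core protein of the box H/ACA snoRNP, stood at 325 and 334 FPKM and NHP2, of the same particle, at 201 and 192 FPKM. The catalytic RNA polymerase I subunits were far lower, POLR1A at 18.5 and 19.8 FPKM and POLR1B at 15.5 and 14.6 FPKM. UTP15 and UTP20, scaffold proteins of the early small subunit precursor, were the lowest, at 6.22 and 6.03 FPKM and 6.68 and 6.41 FPKM. GAR1, also a box H/ACA core protein, at 26.2 and 21.9 FPKM, lay below the polymerase subunit POLR1E, at 29.9 and 31.8 FPKM. In the sgNeg3 pair NCL stood at 223 and 215 FPKM and POLR1A at 8.02 and 8.51 FPKM.
Levels were not comparable between blocks. RRS1, a large subunit factor, stood at 1.58 and 1.45 FPKM in the sgNeg1 pair and at 106 and 104 FPKM in the sgNeg2 pair. BOP1, which forms a complex with PES1 and WDR12 in large subunit assembly, went the other way, at 23.5 and 24.6 FPKM with sgNeg1 and 4.32 and 3.56 FPKM with sgNeg2. All differences below are therefore taken within a block.

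A difference is the log2 fold change of FPKM + 1 between a knockout and the sgNeg pair of its own block, given ± its standard error, and understates changes of genes at low level. Called means a limma p under 0.05 after Benjamini-Hochberg adjustment over all genes tested in the block. The share of all tested genes that were called is printed beside each first count, since it differs widely between knockouts. Over the 16 knockouts, 39 of the 45 members were called at least once. That count was not made over all genes and so has no share beside it. BRD8 alone called 45.9% of all genes in either direction. The 6 called in none were NHP2, NOP10 and GAR1 of the box H/ACA snoRNP, the polymerase subunit POLR1A, and the large subunit factors DDX18 and GNL3.

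**Figure D1:**
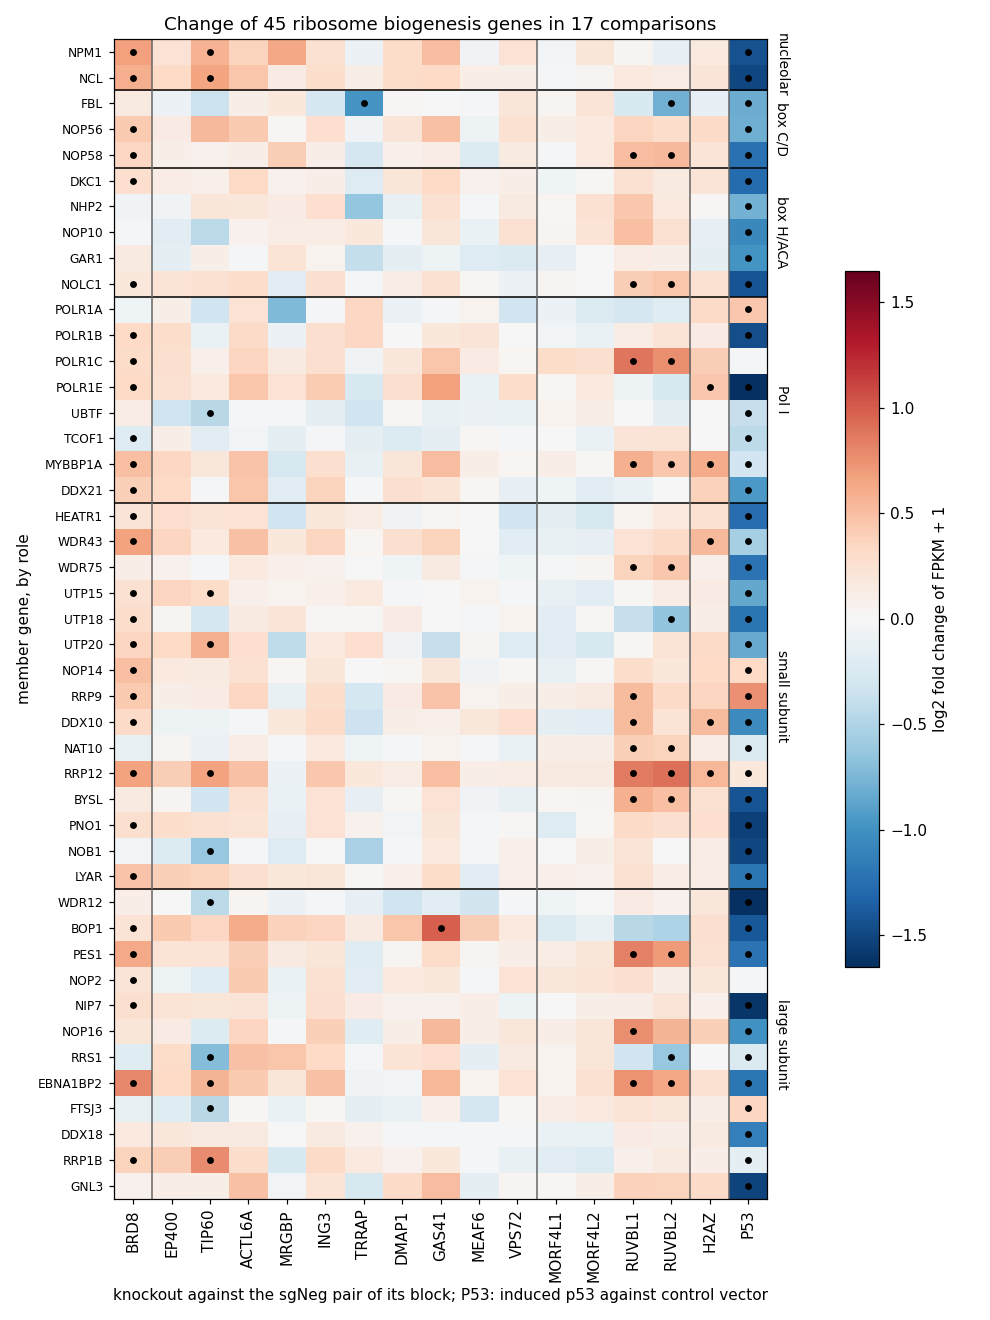
Log2 fold changes (FPKM + 1) of the 45 members, in rows by role, in the 16 knockouts and with induced p53, in columns, with calls marked. The p53 column is lower for 38 members, and the BRD8 column higher for 28.

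**Figure D2:**
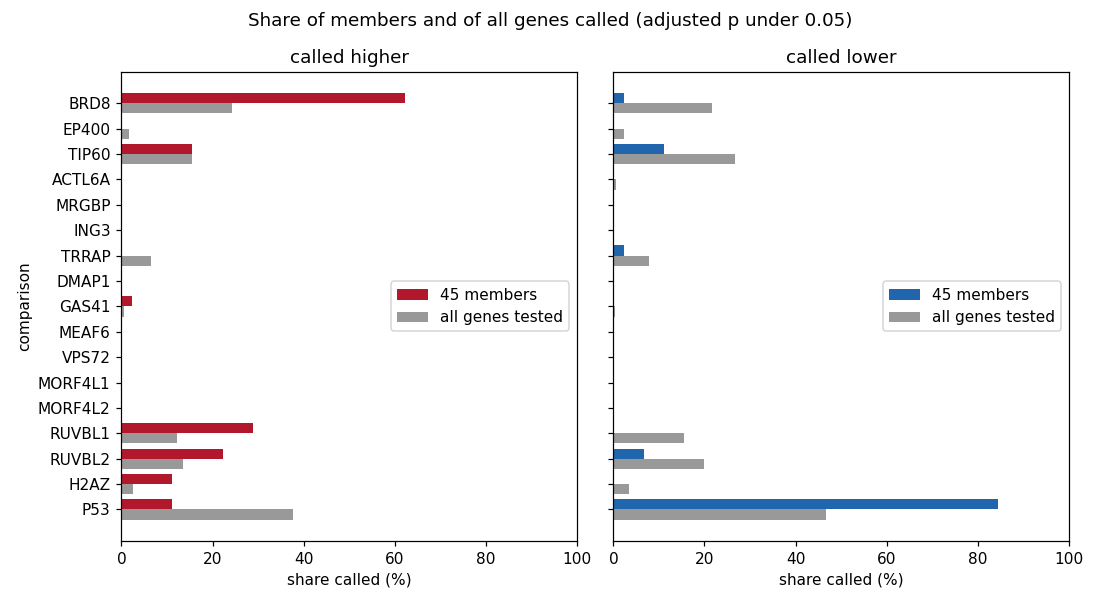
Share of the 45 members (coloured bars) and of all genes tested (grey bars), in percent, called higher (left) and lower (right) in each comparison. Members exceed all genes among the higher calls of BRD8, RUVBL1, RUVBL2, H2AZ and, with 1 call, GAS41, and among the lower calls of P53, while in TIP60 the higher calls are near equal (7 of 45 members against 15.4% of all genes).

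Knockout of BRD8, the bromodomain subunit, went with higher levels of 28 of the 45 members and a lower level of 1, while 24.2% of all genes were called higher and 21.7% lower. The median member difference was 0.26, against 0.020 over all genes. The scaffold genes rose together with factors of both subunits. NPM1 stood at 365 and 373 FPKM with sgNeg1 and 583, 631, 565 and 581 FPKM in the 4 BRD8 libraries, a difference of 0.67 ± 0.064 (limma adjusted p = 4.42e-05). NCL stood at 65.6 and 67.7 FPKM and 101, 106, 98.9 and 101 FPKM, a difference of 0.60 ± 0.054 (limma adjusted p = 3.6e-05). For both genes every knockout library lay above both controls, as in 32 of the 45 members and 32.2% of all genes. NPM1 has many processed pseudogenes, and how their reads were assigned is not given, so its level is uncertain.
The largest difference among members was that of EBNA1BP2, a large subunit assembly factor, at 23.99 and 26.9 FPKM with sgNeg1 and 42.3, 48.4, 44.7 and 43.5 FPKM with BRD8 guides (0.79 ± 0.071, limma adjusted p = 3.5e-05). PES1, partner of BOP1 and WDR12, went from 13.6 and 14.5 FPKM to 22.1, 23.9, 22.1 and 20.8 FPKM (0.63 ± 0.066, limma adjusted p = 7.32e-05). For neither gene did the knockout values overlap the controls, and the 2 guides overlapped each other for EBNA1BP2 and not for PES1. Of PES1's partners BOP1 rose by 0.23 and WDR12 was at 0.11 ± 0.062, not called.
Among small subunit factors 11 of 15 rose. WDR43, which acts with the polymerase at the start of pre-rRNA processing, stood at 7.2 and 8.29 FPKM with sgNeg1 and 13.1, 13.6, 12.3 and 12.5 FPKM with BRD8 guides (0.67 ± 0.071, limma adjusted p = 7.85e-05). RRP12, a factor of late small subunit maturation and export, rose by 0.66 ± 0.082, and NOP14 and RRP9 by 0.50 ± 0.064 and 0.44 ± 0.068. NOB1, the nuclease that makes the last cut of the small subunit RNA, was at -0.041 ± 0.074, not called.
Of the 8 polymerase I genes and cofactors 5 rose and 1 fell. MYBBP1A, a nucleolar protein that binds transcription factors and RNA polymerase I, stood at 5.81 and 5.92 FPKM with sgNeg1 and 8.78, 9.2, 8.43 and 8.46 FPKM with BRD8 guides (0.50 ± 0.061, limma adjusted p = 0.000175). The subunits POLR1B, POLR1C and POLR1E rose by 0.32, 0.30 and 0.33, whereas the largest subunit POLR1A was at -0.065 ± 0.075, not called. TCOF1 (treacle), which recruits the polymerase and its factor UBTF to ribosomal DNA, was the lower member, at 5.76 and 6.78 FPKM with sgNeg1 and 5.16, 5.39, 5.23 and 5.18 FPKM with BRD8 guides (-0.22 ± 0.071, limma adjusted p = 0.0289). Of the snoRNP genes NOP56, NOP58, DKC1 and NOLC1 rose, by 0.43, 0.34, 0.28 and 0.17, and the methyltransferase gene FBL was at 0.14 ± 0.078, not called. The NOLC1 call (limma adjusted p = 0.0451) was lost under 11 of 15 alternatives, each guide alone and the replicate block among them, and those of TCOF1 and NIP7 under 6 each.
Further genes of the same processes, which are not members, went the same way. Their lists were also chosen with earlier results of these data known, so they are no independent check. Of 33 other small subunit factors 16 rose and none fell, among them AATF (0.58) and RIOK1 (0.56). Of 40 other large subunit factors 21 rose and none fell, among them the GTPase GTPBP4 (0.59). MYC rose from 2.67 and 2.4 FPKM to 5.27, 5.83, 5.79 and 5.18 FPKM (0.88 ± 0.072, limma adjusted p = 2.08e-05). BRD8 itself was at -1.09 ± 0.083, CDKN1A at 0.38 ± 0.069 and MDM2 at 0.77 ± 0.08, the last 2 being p53 targets. Beside these counts, 5 of 8 reference genes of metabolism and cell structure also rose and 1 fell, with a median of 0.27, close to that of the members. CD68 was called lower in this comparison, and the 9 markers of other cell types summed to 1.509 and 2.296 FPKM in the controls and 1.152 to 1.453 FPKM in the BRD8 libraries, with 3 to 5 markers at 0 in every library. Their part in the result was not tested. Without the first sgNeg1 library the member median was 0.21.

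RUVBL1 and RUVBL2 are AAA+ ATPases that form a ring together. They are part of the TIP60/EP400 complex and also of the R2TP chaperone that assembles box C/D snoRNPs. In the RUVBL1 knockout 13 members were higher and 0 lower, against 12.3% and 15.5% of all genes. In the RUVBL2 knockout 10 were higher and 3 lower, against 13.5% and 19.9% of all genes. The member medians were 0.24 and 0.19, the medians of all genes -0.024 and -0.052. Both knockouts were compared with the same sgNeg3 pair, so their likeness is not independent, and the values are given side by side.
RRP12 stood at 8.38 and 8.84 FPKM with sgNeg3, 15.2 and 17.5 FPKM with RUVBL1 guides and 17.1 and 16.9 FPKM with RUVBL2 guides. Its differences were 0.85 ± 0.12 (limma adjusted p = 0.00158) and 0.91 ± 0.12 (limma adjusted p = 0.000673). All 4 knockout libraries lay well above both controls. PES1 stood at 32.8 and 33.3 FPKM with sgNeg3, 54.6 and 65.4 FPKM with RUVBL1 guides and 52.03 and 56.96 FPKM with RUVBL2 guides, differences of 0.84 ± 0.15 and 0.70 ± 0.15 (limma adjusted p = 0.00425 and 0.00652). BYSL (bystin), a factor of small subunit precursors, stood at 15.4 and 15.3 FPKM, 23.1 and 24.1 FPKM and 21.1 and 23.01 FPKM in the same order, differences of 0.59 ± 0.11 and 0.49 ± 0.11. MYBBP1A stood at 10.9 and 11.99 FPKM, 17.2 and 18.1 FPKM and 15.9 and 16.2 FPKM, differences of 0.58 ± 0.11 and 0.45 ± 0.11. In all 3 of these genes the knockout libraries lay above the controls, as did those of 34 members with RUVBL1 guides (38.5% of all genes) and 32 with RUVBL2 guides (36.2%).
POLR1C, a subunit that RNA polymerases I and III share, stood at 10.998 and 9.99 FPKM with sgNeg3, 18.4 and 21.98 FPKM with RUVBL1 guides and 17.4 and 19.9 FPKM with RUVBL2 guides. Its differences of 0.88 ± 0.23 and 0.77 ± 0.23 (limma adjusted p = 0.0212 and 0.0294) were the largest among polymerase genes. The other 3 subunits in the list were not called in either knockout, with POLR1A at -0.28 ± 0.33 and -0.20 ± 0.33. DDX10, a helicase of small subunit assembly, stood at 13.03 and 12.4 FPKM, 18.1 and 19.2 FPKM and 14.5 and 15.4 FPKM, called with RUVBL1 guides (0.52 ± 0.12, limma adjusted p = 0.0131) and not with RUVBL2 guides (0.22 ± 0.12, limma adjusted p = 0.182). NOLC1, a chaperone of snoRNPs in the nucleolus and Cajal bodies, stood at 26.01 and 25.7 FPKM, 34.9 and 34.02 FPKM and 36.4 and 35.5 FPKM, differences of 0.40 ± 0.10 and 0.46 ± 0.10. WDR75, of the early small subunit precursor, stood at 18.7 and 17.6 FPKM, 23.4 and 24.2 FPKM and 25.8 and 24.3 FPKM, differences of 0.37 ± 0.10 and 0.45 ± 0.10. NAT10, NOP58 and EBNA1BP2 were also called higher in both, EBNA1BP2 by 0.75 and 0.64, and RRP9 and NOP16 with RUVBL1 guides, by 0.52 and 0.77.
The 3 lower members of the RUVBL2 knockout were FBL, RRS1 and UTP18. FBL (fibrillarin), the methyltransferase of box C/D snoRNPs, stood at 124 and 132 FPKM with sgNeg3 and 70.3 and 76.8 FPKM with RUVBL2 guides (-0.79 ± 0.23, limma adjusted p = 0.0269). The other box C/D proteins did not follow it, since NOP58 rose by 0.53 and NOP56 was at 0.28 ± 0.18, not called. RRS1 stood at 111 and 114 FPKM and 72.01 and 73.1 FPKM (-0.63 ± 0.16, limma adjusted p = 0.0163). UTP18 stood at 18.6 and 20.4 FPKM and 10.3 and 13.99 FPKM (-0.66 ± 0.20, limma adjusted p = 0.0316). In the RUVBL1 knockout the same 3 genes were at -0.25 ± 0.23, -0.31 ± 0.16 and -0.37 ± 0.20, none called. NPM1 and NCL, called with BRD8 guides, were not called in either knockout.
Tested directly against each other, RUVBL1 and RUVBL2 libraries gave 0 called members with limma (share of all genes 0.00904%), and 2 members had an unadjusted p under 0.05 (all genes 5.37%). The largest difference was that of FBL, at 0.55 ± 0.23 (limma adjusted p = 0.906), RUVBL1 minus RUVBL2.
Among non-members, 14 of 43 other large subunit factors rose and 1 fell with RUVBL1 guides, and 14 rose and none fell with RUVBL2 guides. They included LSG1 (0.79 and 1.03) and EFL1 (0.90 and 1.23), GTPases of the last cytoplasmic steps. Of 37 other small subunit factors 10 rose in each and none fell, with the kinase RIOK2 at 0.56 and 0.63. RRN3, the factor that makes RNA polymerase I competent to start, rose by 0.92 and 1.03.
The targets were lower in their own knockouts, RUVBL1 at -1.28 ± 0.16 and RUVBL2 at -1.78 ± 0.22. CDKN1A rose by 1.20 ± 0.15 and 1.07 ± 0.15, MDM2 by 0.90 ± 0.11 and 1.08 ± 0.11, and MYC was at 0.23 and -0.039, not called. The 8 reference genes had medians of -0.16 and -0.48. CD68 was lower in both, and the markers of other cell types summed to 24.574 and 24.327 FPKM with sgNeg3, 14.874 and 13.510 FPKM with RUVBL1 guides and 11.818 and 12.014 FPKM with RUVBL2 guides. Without CD68 these sums were at most 0.878 FPKM, and their part in the result was not tested. With any 1 of the libraries left out, most of these member calls were lost in both knockouts. The share of members called in either direction was then below the share of all genes each time. RRP12 was the member called under every alternative in both.

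The histone variant H2A.Z is exchanged by the same complex. With H2AZ guides 5 members rose and none fell, against 2.6% and 3.42% of all genes, with a member median of 0.22 and an all-gene median of -0.0094. RRP12 stood at 11.4 and 12.4 FPKM with sgNeg4 and 17.8, 17.7, 18.4 and 17.8 FPKM with H2AZ guides (0.55 ± 0.09, limma adjusted p = 0.00715). WDR43 stood at 13.99 and 16.9 FPKM and 21.6, 20.9, 24.6 and 23.8 FPKM (0.53 ± 0.11, limma adjusted p = 0.0216). All 4 H2AZ libraries lay above both controls for these genes, as in 20 members and 13.4% of all genes.
POLR1E, a subunit found in RNA polymerase I and not in the others, stood at 27.7 and 24.3 FPKM with sgNeg4 and 36.7, 36.3, 32.9 and 36.3 FPKM with H2AZ guides (0.44 ± 0.096, limma adjusted p = 0.0268). DDX10 stood at 20.05 and 15.5 FPKM and 23.3, 25.1, 26.2 and 28.5 FPKM (0.52 ± 0.12, limma adjusted p = 0.0366). MYBBP1A stood at 8.8 and 13.1 FPKM and 17.4, 18.8, 17.2 and 14.6 FPKM (0.61 ± 0.15, limma adjusted p = 0.0453). The 2 sgNeg4 libraries lay apart for several members, most plainly POLR1A at 3.82 and 7.28 FPKM, and MYBBP1A in one H2AZ library lay close to the higher control.
No member was called lower, though FBL and NOP10 stood at 236 and 175 FPKM and 792 and 589 FPKM in controls and 205, 176, 177 and 184 FPKM and 736, 604, 563 and 586 FPKM with H2AZ guides. Of the other pathway genes 2 of 37 small subunit and 2 of 43 large subunit factors rose, PDCD11 by 0.49 and PPAN by 0.77. H2AFZ was at -2.40 ± 0.14, MYC rose by 0.47 ± 0.083, and CDKN1A (0.15 ± 0.10) and MDM2 (0.36 ± 0.11) were not called. Depth was lowest in this block. With guide 1 or guide 2 alone no member was called (1.33% and 2.25% of all genes). Leaving out the first or second library of guide 2 left 1 (3.19% and 3.31%), and leaving out the second of guide 1 left 2 (2.94%).

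TIP60, the acetyltransferase, gave a mixed picture. With its guides 7 members rose and 5 fell, against 15.4% and 26.6% of all genes, so the share of members called was near the background for higher calls and below it for lower ones. The member median was 0.10, against -0.095 over all genes. With libraries rescaled to a common median ratio 11 members rose and 4 fell, and the median was 0.22. That setting called 42.6% of all genes in either direction.
RRP1B, a nucleolar protein of large subunit assembly, stood at 10.8 and 11.2 FPKM with sgNeg2 and 18.9 and 20.4 FPKM with TIP60 guides (0.78 ± 0.11, limma adjusted p = 8.65e-05). NCL stood at 223 and 217 FPKM and 334 and 358 FPKM (0.65 ± 0.15, limma adjusted p = 0.00318), and NPM1 at 210.0 and 188 FPKM and 306 and 284 FPKM (0.57 ± 0.19, limma adjusted p = 0.027). RRP12 stood at 8.92 and 8.1 FPKM and 15.8 and 12.5 FPKM (0.67 ± 0.17, limma adjusted p = 0.00554). In these 4 genes both knockout libraries lay above both controls, as in 18 members and 26.3% of all genes. UTP20 stood at 4.57 and 5.81 FPKM and 6.85 and 9.84 FPKM (0.58 ± 0.17, limma adjusted p = 0.013) and EBNA1BP2 at 68.3 and 52.02 FPKM and 97.6 and 80.5 FPKM (0.56 ± 0.21, limma adjusted p = 0.0421), with wide spread between the 2 guides or the 2 controls. The seventh was UTP15, higher by 0.30.
RRS1, which brings the 5S ribonucleoprotein into the large subunit precursor, was the most clearly lower, at 106 and 104 FPKM with sgNeg2 and 63.9 and 62.6 FPKM with TIP60 guides (-0.72 ± 0.16, limma adjusted p = 0.00169). UBTF, the upstream binding factor of RNA polymerase I, stood at 23.9 and 22.6 FPKM and 17.8 and 15.7 FPKM (-0.45 ± 0.11, limma adjusted p = 0.00359). NOB1 stood at 25.3 and 25.3 FPKM and 16.2 and 15.9 FPKM (-0.63 ± 0.18, limma adjusted p = 0.013). Both libraries of each gene lay below both controls, as in 12 members and 39.9% of all genes. WDR12 stood at 17.6 and 17.8 FPKM and 11.2 and 14.5 FPKM (-0.45 ± 0.15) and FTSJ3, a methyltransferase of pre-rRNA processing, at 28.8 and 25.2 FPKM and 21.2 and 17.6 FPKM (-0.46 ± 0.15), with limma adjusted p = 0.0242 and 0.0251.
MYC stood at 36.4 and 41.3 FPKM with sgNeg2 and 159 and 152 FPKM with TIP60 guides (1.98 ± 0.18, limma adjusted p = 2.26e-06). KAT5 was at -0.87 ± 0.12, and CDKN1A (-0.17 ± 0.23) and MDM2 (0.40 ± 0.18) were not called. Other large subunit factors rose in 8 and fell in 1 of 43 cases, the export adaptor NMD3 being the lower one (-0.65), and other small subunit factors rose in 4 and fell in 1 of 37. RRS1 and RRP1B kept their call under every alternative. Without the first or second sgNeg2 library the member median was 0.15 or 0.076. With TIP60 and sgNeg2 fitted alone 4 members were called, against 29.8% of all genes.

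Few or no members were called in the other knockouts. EP400, the ATPase that exchanges H2A.Z, gave 0 called members with limma (share of all genes 3.83%), with 9 at an unadjusted p under 0.05 (all genes 19.7%) and a median of 0.16. Its largest difference was that of BOP1, at 4.32 and 3.56 FPKM with sgNeg2 and 5.58 and 5.7 FPKM with EP400 guides (0.43 ± 0.19, limma adjusted p = 0.234). ACTL6A, an actin-related subunit, also gave 0 calls with limma (share of all genes 0.782%), with 16 members at an unadjusted p under 0.05, against 15.6% of all genes, and 40 of 45 differences above 0. Its median was 0.27, and its largest difference again that of BOP1, at 5.44 and 7.88 FPKM (0.62 ± 0.19). All knockouts compared with sgNeg2 share that 1 control pair, so neither a gene that recurs among them nor their counts by library are independent. For BOP1 both controls lay below every knockout library fitted in this block except the second TRRAP library, at 3.57 FPKM. Counted by library, 27 members lay above both controls in both EP400 libraries, against 25.1% of all genes, and the counts were 27 for ACTL6A (19.6%), 26 for ING3 (21%), 28 for GAS41 (24.4%), 14 for DMAP1 (19%) and 10 for MORF4L2 (12%). They were 6 for TRRAP (28.7%), 6 for MRGBP (15.8%) and 4 for MORF4L1 (12.9%), and, from 1 library each, 10 for MEAF6 (23.9%) and 20 for VPS72 (29.6%). The second ACTL6A library lay higher than the first for RRP12 (9.74 and 15.4 FPKM) and MYBBP1A (13.001 and 20.7 FPKM).
GAS41, a reader of acetylated histones, gave 1 call (share of all genes 0.94%). BOP1 stood at 8.09 and 9.53 FPKM, both above the sgNeg2 pair (0.99 ± 0.19, limma adjusted p = 0.0317), and the median was 0.20. Leaving out any 1 of the 4 libraries left 0 calls. ING3 had a median of 0.24 with 40 of 45 members above 0, 0 calls with limma (share of all genes 0.0264%) and 5 members at an unadjusted p under 0.05 (all genes 9.53%). Its largest difference was that of EBNA1BP2, at 89.96 and 77.4 FPKM (0.48 ± 0.21).
TRRAP, the scaffold subunit that binds transcription activators, gave 1 call (share of all genes 14.2%). FBL was lower, at 82.2 and 43.8 FPKM against 135 and 105 FPKM with sgNeg2 (-0.98 ± 0.24, limma adjusted p = 0.0177). The 2 TRRAP libraries stood apart, the second lying below the first in FBL as in most members. The median member difference was -0.24 without the first library and 0.10 without the second. TRRAP itself was at -0.25 ± 0.21, not called. CD68 was higher by 1.61 ± 0.24 (limma adjusted p = 0.0013), and the markers of other cell types summed to 37.334 and 74.263 FPKM against 18.686 and 14.861 FPKM with sgNeg2, highest in the library where FBL was lowest. Without CD68 the TRRAP sums were 0.283 and 0.235 FPKM, and their part in the result was not tested.
MRGBP and DMAP1 gave 0 and 0 calls with limma (shares of all genes 0.264% and 0%), with 6 and 2 members at an unadjusted p under 0.05 (all genes 12.8% and 8.97%). Their largest differences were those of POLR1A, at 3.56 and 7.29 FPKM (-0.72 ± 0.24), and BOP1, at 5.89 and 5.66 FPKM (0.46 ± 0.19). MEAF6, VPS72, MORF4L1 and MORF4L2 gave 0 calls with limma (share of all genes 0% in each) and 0 members at an unadjusted p under 0.05, which 3.65%, 3.53%, 0.768% and 2.08% of all genes had in that order. Their largest differences were 0.41 ± 0.24 (BOP1), -0.32 ± 0.23 (HEATR1), 0.30 ± 0.23 (POLR1C) and -0.27 ± 0.23 (HEATR1). MEAF6 and VPS72 have 1 library each and take their spread from the other groups. None of these 4 targets was itself called lower, nor were MRGBP, DMAP1 and ING3 in their own knockouts. A missing call in these knockouts therefore does not show that the members did not respond.

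**Figure D3:**
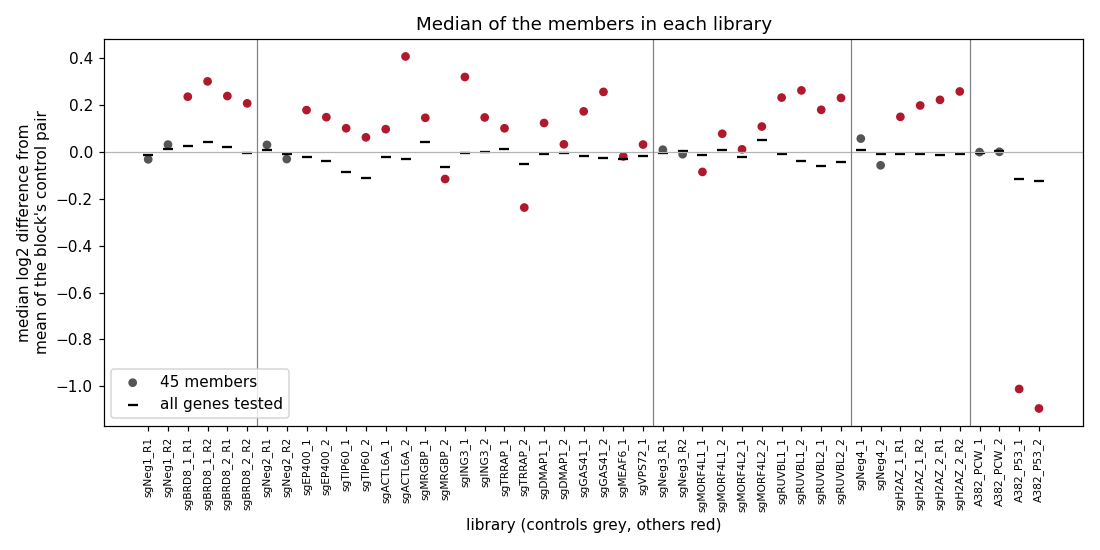
Median log2 difference of the 45 members (points) and of all genes tested (dashes) in each library from the mean of its block's control pair, controls in grey and blocks divided by vertical lines. All 4 BRD8, all 4 H2AZ and all 4 RUVBL libraries lie above their controls, and both P53 libraries lie far below theirs. The EP400, TIP60, ACTL6A, ING3, DMAP1, GAS41, MORF4L2 and VPS72 libraries also lie above their controls, some of them narrowly.

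TIP60 was also tested directly against EP400 and TRRAP, in the block they share. Against EP400, TIP60 libraries had 1 member higher and 3 lower (21.3% of all genes called). RRS1 stood at 119 and 140.3 FPKM with EP400 guides and 63.9 and 62.6 FPKM with TIP60 guides (-1.02 ± 0.16, limma adjusted p = 0.000477), the largest of the 4. WDR12 (-0.43 ± 0.15) and POLR1B (-0.39 ± 0.14) were also lower and RRP1B higher (0.37 ± 0.11), with limma adjusted p of 0.0483, 0.0489 and 0.0313. With libraries rescaled 2 were higher and 1 lower (21.7% of all genes called), and RRS1 was the one call that held under every alternative.
Against TRRAP, TIP60 libraries had 7 members higher and 4 lower (38.2% of all genes called). The box H/ACA core proteins split, NHP2 (0.83 ± 0.22) and GAR1 (0.49 ± 0.18) being higher, NOP10 (-0.62 ± 0.20) lower and DKC1 not called. NHP2 stood at 107 and 80.03 FPKM with TRRAP guides and 193 and 143 FPKM with TIP60 guides, NOP10 at 391 and 344 FPKM and 267 and 211 FPKM. NPM1, NCL, RRP12, EBNA1BP2 and RRP1B were higher, by 0.67, 0.55, 0.50, 0.62 and 0.62. POLR1A, POLR1B and RRS1 were at -0.68, -0.45 and -0.69. RRP1B was the one call that held under every alternative. With libraries rescaled to a common median ratio 17 members were higher and 2 lower (37.8% of all genes called). Between TRRAP and EP400 there were 0 calls with limma (3.27% of all genes), 8 members had an unadjusted p under 0.05 (all genes 21.9%), and the largest difference was that of FBL (-0.88 ± 0.24, limma adjusted p = 0.0574).

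**Figure D4:**
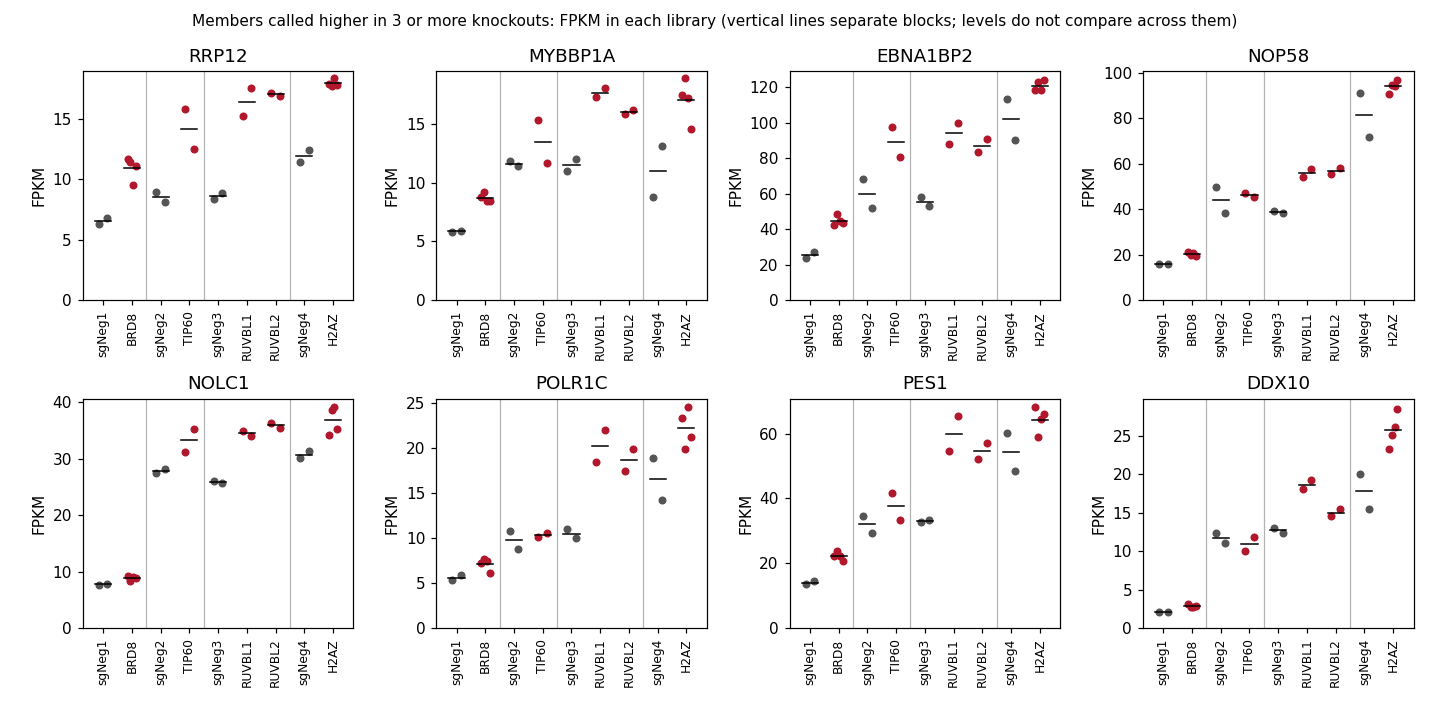
FPKM of the 8 members called higher in 3 or more knockouts, in each library of the control pairs and of the knockouts in which calls were made, on axes that differ by gene. RRP12 lies above its controls in BRD8, TIP60, RUVBL1, RUVBL2 and H2AZ libraries.

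Of the 45 members 8 were called higher in 3 or more knockouts. The share of all genes with as many higher calls was not computed. RUVBL1 and RUVBL2 share the sgNeg3 pair, so calls in both are not independent. RRP12 was called in 5, in 4 separate blocks with their own controls (BRD8, TIP60, RUVBL1, RUVBL2 and H2AZ), with differences from 0.55 to 0.91. EBNA1BP2 was called in BRD8, TIP60, RUVBL1 and RUVBL2, and MYBBP1A in BRD8, RUVBL1, RUVBL2 and H2AZ. NOP58, NOLC1 (in BRD8 a call that most alternatives lost), POLR1C and PES1 were called in BRD8, RUVBL1 and RUVBL2, and DDX10 in BRD8, RUVBL1 and H2AZ. FBL and RRS1 were called lower in 2 knockouts each and higher in none. UTP18 was called in both directions, higher with BRD8 guides, where it stood at 10.1 and 9.66 FPKM in controls and 12.3, 13.5, 11.8 and 11.6 FPKM in knockouts (0.29 ± 0.071, limma adjusted p = 0.00808), and lower with RUVBL2 guides.

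With induced p53 most members fell. In the P53 libraries 38 of 45 were called lower and 5 higher, against 46.7% and 37.6% of all genes. The member median was -1.05 against -0.13 over all genes, so the members lay below a small general shift. CDKN1A and MDM2 rose by 1.66 ± 0.045 and 2.36 ± 0.063, while MYC fell from 109 and 108 FPKM to 25.8 and 23.5 FPKM (-2.09 ± 0.056). In bulk RNA, fewer cells of a type and less RNA per cell cannot be told apart.
NCL stood at 370.0 and 352 FPKM with PCW and 129.6 and 125 FPKM with P53, or 35.2% of the control mean (-1.50 ± 0.046, limma adjusted p = 1.37e-07). NPM1 fell to 36.5% of control, from 249 and 234 FPKM to 91.3 and 85.1 FPKM (-1.44 ± 0.054). Both libraries of each group lay close together and P53 lay below PCW, as in 38 members and 51% of all genes.
All 8 members of the box C/D and box H/ACA groups fell. NOLC1 went from 49.4 and 50.2 FPKM to 18.3 and 17.5 FPKM (-1.42 ± 0.051, limma adjusted p = 2.61e-07), and DKC1 (dyskerin), the pseudouridine synthase, from 71.1 and 73.7 FPKM to 29.5 and 29.4 FPKM (-1.27 ± 0.047, limma adjusted p = 3.01e-07). Within the box C/D particle NOP58 (-1.23), FBL (-0.82) and NOP56 (-0.80) fell. Within the box H/ACA particle NOP10 (-1.06), GAR1 (-0.99) and NHP2 (-0.77) fell.
Subunits of one enzyme went apart. POLR1B, the second largest subunit of RNA polymerase I, went from 15.5 and 14.6 FPKM to 4.79 and 4.86 FPKM (-1.46 ± 0.069) and POLR1E from 29.9 and 31.8 FPKM to 10.4 and 8.12 FPKM (-1.64 ± 0.10). POLR1C stood at 27.7 and 29.2 FPKM with PCW and 29.3 and 26.2 FPKM with P53 (-0.035 ± 0.068, limma adjusted p = 0.642). POLR1A, the largest subunit, rose from 18.5 and 19.8 FPKM to 27.1 and 26.03 FPKM (0.45 ± 0.059, limma adjusted p = 0.000221). POLR1B and POLR1C both hold the ETS core and the CGCG box letters in their windows. UBTF (-0.38 ± 0.049), TCOF1 (-0.43 ± 0.059) and MYBBP1A (-0.32 ± 0.055) also fell, as did the helicase DDX21 (-0.94 ± 0.052).
Of the 15 small subunit factors 12 fell and 3 rose. PNO1, an assembly factor that partners NOB1, went from 47.9 and 46.1 FPKM to 15.6 and 15.5 FPKM (-1.54 ± 0.051, limma adjusted p = 1.88e-07), and NOB1 fell too (-1.51 ± 0.078). RRP9, the U3 snoRNP protein, rose from 63.2 and 64.3 FPKM to 112 and 105 FPKM, or 170.2% of control (0.76 ± 0.05, limma adjusted p = 5.32e-06). NOP14 rose from 29.3 and 29.1 FPKM to 37.9 and 35.7 FPKM (0.32 ± 0.053, limma adjusted p = 0.000776). RRP12 went from 17.6 and 19.3 FPKM to 21.6 and 20.4 FPKM (0.18 ± 0.066, limma adjusted p = 0.0357), so the member with the largest number of knockout calls, 5 of 16, was not lower here.
Of the 12 large subunit factors 10 fell and 1 rose. WDR12 went from 29.2 and 29.9 FPKM to 8.48 and 9.11 FPKM (-1.64 ± 0.061, limma adjusted p = 3.1e-07), and its partners BOP1 (-1.40) and PES1 (-1.22) fell. GNL3 (nucleostemin), a nucleolar GTPase, went from 72.3 and 73.8 FPKM to 25.4 and 23.98 FPKM (-1.53 ± 0.05, limma adjusted p = 1.78e-07). FTSJ3 rose from 28.2 and 28.01 FPKM to 37.4 and 35.2 FPKM (0.36 ± 0.053, limma adjusted p = 0.000442), having fallen with TIP60 guides. NOP2, a methyltransferase of the large subunit RNA, was at 37.5 and 40.1 FPKM and 36.7 and 38.8 FPKM (-0.038 ± 0.056, not called). RRP1B was near no change, at -0.16 ± 0.059 (limma adjusted p = 0.0414), and at 0.0491 (limma adjusted p = 0.4691) once libraries were rescaled to a common median ratio. The same rescaling put MYBBP1A at -0.11 (limma adjusted p = 0.0908), NAT10 at -0.036 (limma adjusted p = 0.558) and RRS1 at -0.021 (limma adjusted p = 0.688), which were -0.32, -0.24 and -0.23 and called before it. With it 34 members were lower and 7 higher (81.7% of all genes called), with a median of -0.85.

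**Figure D5:**
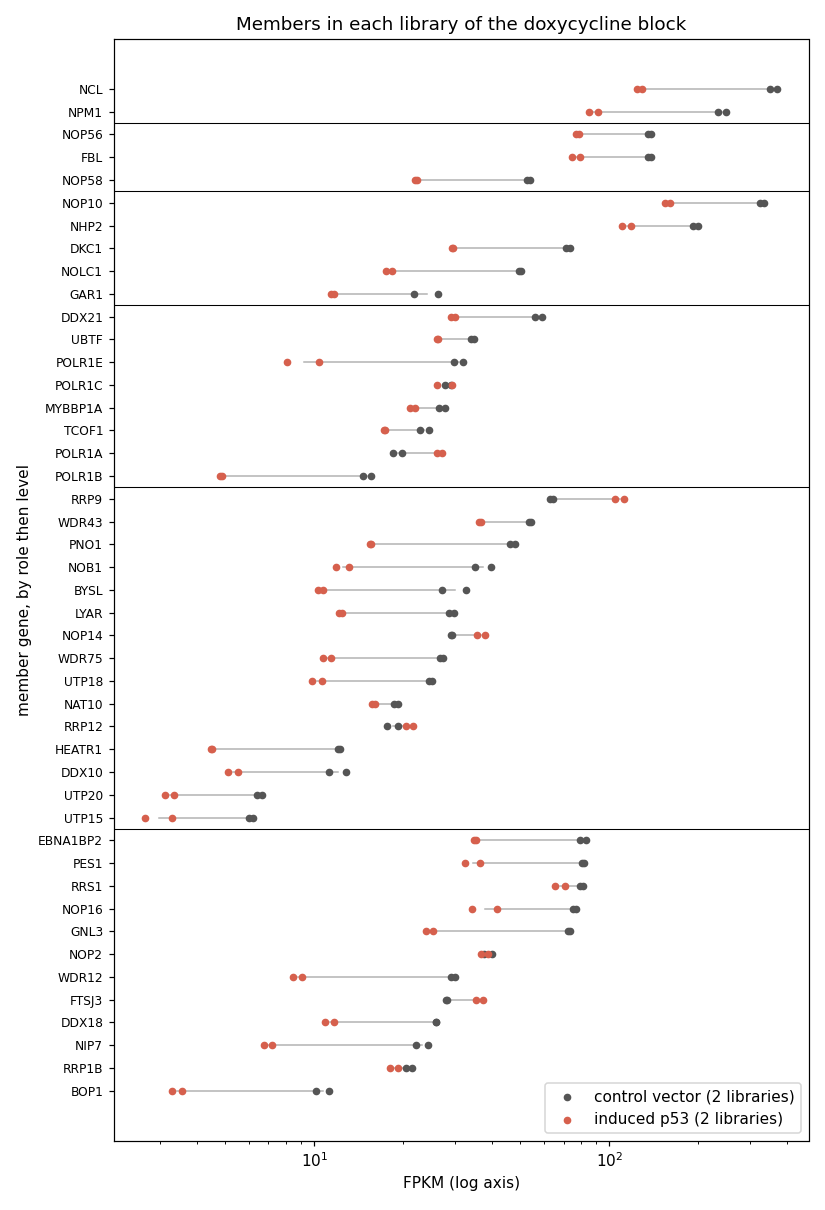
FPKM of the 45 members in the 2 PCW and the 2 P53 libraries, on a log axis. The points of the 2 P53 libraries lie below those of PCW for 38 members called lower and above them for RRP9, POLR1A, FTSJ3, NOP14 and RRP12.

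Most other genes of the pathway fell with p53 as well, in lists likewise chosen with earlier results of these data known. Of 37 other small subunit factors 33 fell and 1 rose, of 43 other large subunit factors 31 fell and 9 rose, and of 15 genes of the RNA exosome and related nucleases 13 fell. NMD3 (-1.88 ± 0.057), WDR3 (-1.80 ± 0.059) and PAK1IP1 (-1.57 ± 0.058) fell most clearly. Of 14 other polymerase I genes 10 fell and 3 rose, the 3 being POLR2H (1.28), ZNRD1 (1.06) and POLR2L (1.00), of which POLR2H and POLR2L are shared by all nuclear RNA polymerases. RPL5 and RPL11, ribosomal proteins that bind MDM2 together with 5S RNA, were at -0.84 and -0.48, both called. Beside these, all 8 reference genes of metabolism and cell structure fell as well, with a median of -0.55, led by HPRT1 (-1.64) and PGK1 (-1.28), and their part in the result was not tested. Markers of other cell types summed to 11.252 and 10.262 FPKM with PCW and 26.177 and 26.403 FPKM with P53, and without CD68, which was higher, to 1.175 and 1.369 FPKM and to 0.988 and 0.793 FPKM. Their part was not tested.
The p53 and knockout comparisons share no control library. Of the 28 members higher with BRD8 guides 23 were lower with p53, 82.1% of the first list and 60.5% of the 38 in the second. Of all 45 members 84.4% were lower with p53. The counts were 10 of 13 for RUVBL1, 8 of 10 for RUVBL2, 6 of 7 for TIP60 and 4 of 5 for H2AZ.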

How the data were processed

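Poly(A) RNA of A382 cells was extracted with TRIzol and sequenced as stranded libraries, per the labels' protocols. The authors deposited 1 table of FPKM values for 48 libraries, and TopHat2, Cufflinks and Cuffdiff and the build hg19 are named in the submitters' processing notes, with no version, role or strand setting. With strand counting not given, reads of overlapping or antisense genes cannot be told apart. The table's empty columns make 5 blocks, and its name says that values are normalized.

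Groups were taken from the sample labels. In each block log2(FPKM + 1) was fitted with limma 3.58.1 in R 4.3.3 (targets as levels of 1 factor, moderated variances that follow mean intensity, two-sided tests) for genes at 1 FPKM or more in at least 2 libraries of that block, and p was adjusted by Benjamini-Hochberg over all genes tested, with a threshold of 0.05. The script was tested on simulated data. FPKM are not counts, so no count test was run. The identical guide 2 columns of MEAF6 and VPS72 were not used. A further marker of other cell types is not reported here.

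The members and all gene lists were chosen with earlier results of these data known, and 5 symbols were replaced by those of the table after it was seen. Values by library are given for at most 6 called members with the smallest adjusted p in each direction, for the largest difference where none was called, and for members called in 3 or more knockouts or in opposite directions. Of other lists at most 3 called genes are named per comparison. Other values were chosen after they were seen. Promoter windows and starts come from RefSeq (GRCh38.p14), not from the build of the table.

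Same-numbered libraries did not deviate together in BRD8 (correlations 0.0286 and -0.0264) or P53 (0.042). In H2AZ they deviated together for guide 1 (0.308) and oppositely for guide 2 (-0.281), so equal numbers did not mark pairs for both guides. No pairing was used, and deviations that H2AZ libraries share with their controls stay in the spread of the main fit. Alternatives were a pseudocount of 0.1, no filter, a filter of 5 FPKM, the 2 groups alone, no trend, rescaled libraries, each guide alone, each library left out and a replicate block.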

Additional observations from a re-analysis of the deposited data

Results flagged for a closer look

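Among the groups of 4 libraries, 5 of 90 member and group pairs had 1 library far from the other 3, about the 1 in 20 that chance gives. NOP56 was at 40.6 FPKM in the first BRD8 guide 1 library, against 40.6, 42.6, 42.3 and 42.6 FPKM in all 4. UTP15 was at 2.36 FPKM in the second BRD8 guide 1 library, the highest of 2.01, 2.36, 2.04 and 1.98 FPKM. With H2AZ guide 2, POLR1E was at 32.9 FPKM in the first library, the lowest of 36.7, 36.3, 32.9 and 36.3 FPKM, RRP12 was at 18.4 FPKM in the same library, the highest of 17.8, 17.7, 18.4 and 17.8 FPKM, and UTP18 was at 34.6 FPKM in the second, the highest of 24.7, 26.3, 26.1 and 34.6 FPKM.

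The direct tests between knockouts gave 15 member differences past the limma threshold. TIP60 against EP400 gave 4 of 45 members, against 21.3% of all genes. TIP60 against TRRAP gave 11 of 45, against 38.2% of all genes, so in both the members were called less often. Only RRS1 against EP400 and RRP1B against TRRAP kept their call under every alternative. TIP60 minus EP400 was -0.39 for POLR1B, -0.43 for WDR12, -1.02 for RRS1 and 0.37 for RRP1B. TIP60 minus TRRAP was 0.67 for NPM1, 0.55 for NCL, 0.83 for NHP2, -0.62 for NOP10, 0.49 for GAR1, -0.68 for POLR1A, -0.45 for POLR1B, 0.50 for RRP12, -0.69 for RRS1, 0.62 for EBNA1BP2 and 0.62 for RRP1B.

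The values deposited under both MEAF6 guide 2 and VPS72 guide 2 entered no comparison. Their median member difference from the sgNeg2 mean was 0.10, outside the 0.030 by which the 2 sgNeg2 libraries lay to either side.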

How the results depend on the processing

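Counts of called members moved by over 1.5 times in these cases, with the share of all genes called in brackets. With the 2 groups fitted alone there were 4 for EP400 (13.3%), 4 for TIP60 (29.8%), 0 for TRRAP (6.96%) and 6 for GAS41 (7.31%). That setting gave 30 for RUVBL1 (55.3%) and 29 for RUVBL2 (61.6%). It gave 1 for RUVBL1 against RUVBL2 (1.18%), 1 for TIP60 against EP400 (12.6%) and 2 for TIP60 against TRRAP (20.6%). Rescaled libraries gave 1 for EP400 (3.72%), 4 for TRRAP (14.7%) and 1 for TRRAP against EP400 (4.9%). They gave 19 for TIP60 against TRRAP (37.8%), 17 higher and 2 lower, and put RRP1B with p53 at 0.0491. With no filter there were 2 for TRRAP (7.55%), 0 for GAS41 (0.0178%) and 2 for H2AZ (2.97%). The direct tests then gave 2 for TIP60 against EP400 (15.9%) and 7 for TIP60 against TRRAP (28.6%). A filter of 5 FPKM gave 2 for TRRAP (15.6%). With no intensity trend there were 3 for H2AZ (5.79%) and 2 for TIP60 against EP400 (21.2%). Guide 1 or guide 2 alone gave 0 and 0 for H2AZ (1.33% and 2.25%). The cause was not tested.

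With each library left out in turn the counts ran from 18 to 29 for BRD8 (18 without sgNeg1 replicate 1), 6 to 10 for TIP60, 0 to 2 for ACTL6A, 0 to 1 for MRGBP, 0 to 6 for TRRAP, 0 throughout for GAS41, 0 to 6 for MORF4L2 (6 without replicate 1), 1 to 5 for RUVBL1, 1 to 3 for RUVBL2, 1 to 7 for H2AZ, 41 to 43 for P53, 1 to 4 for TIP60 against EP400, 4 to 18 for TIP60 against TRRAP (18 without TRRAP replicate 1) and 0 to 3 for TRRAP against EP400. A group left with 1 library is assumed to vary like the others. The share of all genes called also changed with the library left out, so these counts do not show a change particular to the members. Calls held under every alternative for 15 of 29 members in BRD8, 38 of 43 with p53, 2 of 12 in TIP60, and 1 of 13 in each of RUVBL1 and RUVBL2 (RRP12). They held for 0 of 5 members in H2AZ.

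With the replicate number as a block 28 members were called in BRD8 (43.3% of all genes), 7 in H2AZ (6.56%) and 42 with p53 (84.1%). With the numbers of guide 2 crossed, which was chosen after seeing the data, 7 were also called in H2AZ (9.05%). For the other knockouts no paired analysis was possible because the numbers of their libraries stand for guides. Depth limits H2AZ most, at 4.2 to 7.3 fragments per kilobase and FPKM.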
